A study of Homo sapiens with 12 samples.

Results

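Cholesterol and fatty acid synthesis was examined through 32 listed genes for the enzymes, sensors and transcription factors of both branches, in RKO cells, a human colorectal adenocarcinoma line. A listed gene was kept where the array annotation gave it a probe set naming that gene alone, and each gene was read from such a probe set with the highest mean signal over the arrays. This left 28 of the 32 genes, among 11963 genes measured in the same way. FDFT1 and ACSL3 were not named in the annotation used here, CYP51A1 and FADS1 had only probe sets annotated to several genes, and these 4 genes were not analysed.

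RNA was measured on 12 oligonucleotide arrays, 3 in each of 4 groups. The groups were RKO cells given thymoquinone (TQ, a quinone of black cumin seed) at 20 µM, cells given 5-fluorouracil (5-FU, a pyrimidine analogue that blocks thymidylate synthase and enters RNA and DNA) at 10 µg/mL, cells given both drugs together at those doses (TQ+5-FU), and control cells, all harvested after 24 h. The record describes the controls as untreated, whereas the methods of the study give them the solvent DMSO, so whether a difference from control includes a solvent effect cannot be told apart from the drug. The statistics section of the study speaks of independent biological replicates, but neither it nor the record says how the arrays of a group relate to cultures, so a p-value here reflects only how much these arrays vary, which may in part be technical. In bulk RNA, fewer cells with a transcript and less of it per cell cannot be told apart either.

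Cholesterol is built from acetyl-CoA through mevalonate, the isoprenoid diphosphates, squalene and lanosterol, and fatty acids are built from acetyl-CoA that ACLY releases from citrate. Genes of both branches are transcribed under the SREBP factors, which SCAP escorts out of the endoplasmic reticulum when membrane sterol is low and which INSIG proteins hold back when it is high. Proliferating tumour cells, those of colorectal cancer included, commonly run both branches to build membranes.

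The promoters of the 3 genes that passed the test in at least 1 comparison with control (SCD, INSIG1 and ACLY) are shown because the SREBP factors act at such regions with the factor NF-Y, which binds the CCAAT box. That of SREBF2, the gene of the sterol-regulated SREBP, is shown as well. Among the measured genes with a promoter entry, it alone held the sterol regulatory element searched for. Each is the window of 250 bases before the RefSeq start of the gene on GRCh38.p14, written 5′ to 3′ on the strand of the gene: chr10:100346983-100347232 (plus strand) for SCD, chr7:155297628-155297877 (plus strand) for INSIG1, chr17:41919023-41919272 (minus strand) for ACLY and chr22:41832855-41833104 (plus strand) for SREBF2. Capitals mark the CCAAT box (CCAAT, or ATTGG where it lies on the other strand), the E-box (CACGTG) and the sterol regulatory element (TCACNCCAC).
SCD: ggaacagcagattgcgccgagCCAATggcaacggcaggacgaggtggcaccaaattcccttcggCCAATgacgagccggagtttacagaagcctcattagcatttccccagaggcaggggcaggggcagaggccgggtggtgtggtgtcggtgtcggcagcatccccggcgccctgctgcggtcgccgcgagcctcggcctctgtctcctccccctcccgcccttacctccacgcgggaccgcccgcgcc
INSIG1: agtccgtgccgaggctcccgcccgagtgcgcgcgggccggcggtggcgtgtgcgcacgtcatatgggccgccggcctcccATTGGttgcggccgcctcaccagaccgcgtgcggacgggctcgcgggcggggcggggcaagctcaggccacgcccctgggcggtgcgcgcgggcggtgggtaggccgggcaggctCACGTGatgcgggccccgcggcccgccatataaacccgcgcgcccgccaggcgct
ACLY: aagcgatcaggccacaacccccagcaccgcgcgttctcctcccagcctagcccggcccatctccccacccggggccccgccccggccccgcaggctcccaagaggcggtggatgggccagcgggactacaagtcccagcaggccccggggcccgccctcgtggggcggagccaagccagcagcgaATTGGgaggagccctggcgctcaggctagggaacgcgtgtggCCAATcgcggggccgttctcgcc
SREBF2: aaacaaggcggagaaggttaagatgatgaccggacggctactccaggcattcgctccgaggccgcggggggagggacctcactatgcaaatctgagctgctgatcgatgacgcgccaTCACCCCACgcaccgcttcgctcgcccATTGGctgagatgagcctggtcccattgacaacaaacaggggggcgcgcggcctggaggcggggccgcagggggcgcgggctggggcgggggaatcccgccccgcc
SCD and ACLY each carried 2 CCAAT boxes, INSIG1 carried 1 with an E-box, and SREBF2 carried 1 with the sterol regulatory element. Of the 28 measured genes, 25 had a promoter in the RefSeq table, and ACAT2, SQLE and FASN had no entry. Searched on both strands, the CCAAT box was in 16 of the 25 promoters (64%), against 33% of the 27305 promoters of all genes in windows of the same length. The E-box was in 3 of 25 (12%; SC5D, INSIG1 and SCAP), against 6.49% of all promoters, and the sterol regulatory element in 1 of 25 (4%), against 0.875%. None of the matches printed overlapped another, and a match describes the sequence only.

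The values are log2 signals after RMA, so a difference of 1 is 2-fold. Over the 12 arrays the 28 genes had mean signals between 6.25 (MVD) and 11.53 (ACLY), with a median of 8.80, against 7.18 over all genes. Of 5 epithelial markers, KRT18 averaged between 11.99 and 12.58 and EPCAM between 9.04 and 9.46 in the 4 groups, whereas KRT19 and CDH1 stayed between 3.37 and 3.83. Of the 3 leukocyte markers measured, PTPRC stayed between 3.69 and 3.98, CD14 between 4.97 and 5.28 and CD3E between 6.05 and 6.33, and of the 6 fibroblast markers COL1A1 was the brightest, at 8.04 to 8.36.

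A pair of arrays was displaced from their replicates, 5-FU replicate 3 clearly and TQ+5-FU replicate 2 less so. The mean correlation of 5-FU replicate 3 with the other 5-FU arrays was 0.911, against 0.952 and 0.957 for replicates 1 and 2, and its nearest array was TQ+5-FU replicate 2. That of TQ+5-FU replicate 2 was 0.978, against 0.984 and 0.990 for its replicates, and its nearest array was TQ+5-FU replicate 3. Over all probe sets, deviations from the group mean were correlated between arrays of different groups. Control replicate 3 correlated with 5-FU replicate 3 and TQ+5-FU replicate 2 at 0.61 and 0.66, and TQ replicate 1 at 0.64 and 0.62. The other control and TQ arrays correlated with them below 0. The poly-A spike-in signals of 5-FU replicate 3 and TQ+5-FU replicate 2 were 9.47 and 8.94, against 8.22 to 8.97 on the other 10 arrays. In 5-FU replicate 3 the medians of the epithelial, leukocyte and fibroblast markers lay 0.47, 0.62 and 0.63 above their control means. The median of all genes lay 0.37 above on that array. On TQ+5-FU replicate 3, which was not displaced, the epithelial median lay 0.41 above. The part of the spike-in signal and of the markers in the results was not tested.

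Lipid synthesis genes were among those displaced, in both directions. In 5-FU replicate 3, 9 of the 28 lay over 1 log2 unit lower than the mean of 5-FU replicates 1 and 2, and 3 lay over 1 unit higher, against 18.9% and 6.51% of all genes. The lowest were SC5D (-3.52), ACSL4 (-3.35), ELOVL6 (-3.09) and IDI1 (-2.95), and the 3 above were DHCR7 (1.08), SCAP (1.01) and ACACA (1.00). In TQ+5-FU replicate 2, 5 of the 28 lay over 1 unit lower than the mean of its replicates and 0 over 1 unit higher, against 8.28% and 0.0334% of all genes. The deviation had the same sign on both arrays for 27 of the 28 genes. SCD (-0.50), INSIG1 (-0.56) and ACLY (-0.47) were displaced less in 5-FU replicate 3 than the genes named as lowest. Results are therefore given with all 12 arrays and, beside them, without these 2.

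**Figure D1:**
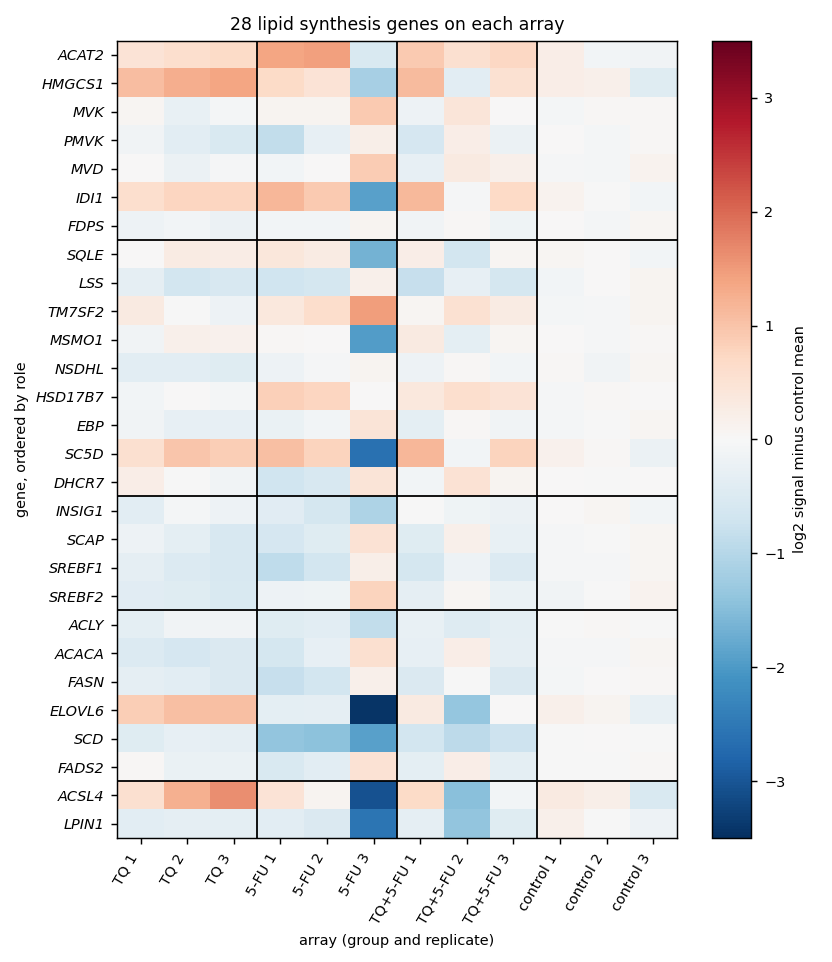
Log2 signal minus the mean of the controls for 28 lipid synthesis genes (rows, ordered by role) on each of the 12 arrays (columns, by group and replicate); blue is below the control mean and red above it. SCD is below control on all 9 treated arrays, and 5-FU replicate 3 stands apart from the other 5-FU arrays, with SC5D, ACSL4, ELOVL6 and IDI1 lowest against them.

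The clearest response of these genes was the fall of SCD, the desaturase that makes oleate and palmitoleate from saturated fatty acids, in cells given 5-FU. With limma over all arrays and Benjamini-Hochberg adjustment, 3 of the 28 genes fell with 5-FU (SCD, INSIG1 and ACLY), against 2.97% of all genes, and 0 rose, against 4.32%. With TQ+5-FU, SCD alone fell, against 0.853% of all genes, and 0 rose, against 1.78%. With TQ alone 0 of the 28 passed, against 0.267% of all genes in either direction, and 4 had an unadjusted p under 0.05 (HMGCS1, LSS, NSDHL and SCD), against 9.67% of all genes. Across the 4 groups, the moderated F test called SCD alone (adjusted p = 0.00070), against 8.19% of all genes.

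Without the 2 displaced arrays the 5-FU and TQ+5-FU groups held 2 arrays each, the estimated spread was smaller and the counts were larger. These arrays were left out after their deviation was seen, a choice that by itself lowers the estimated spread and the p-values of this fit. With TQ, whose own arrays and controls are the same in both fits, 6 of the 28 rose and 9 fell, against 15.1% and 17.3% of all genes. With 5-FU, 6 rose and 12 fell, against 14.9% and 13.4%. With TQ+5-FU, 5 rose and 7 fell, against 12.7% and 10%. As shares of the 28 genes, those that fell were 32.1% with TQ, 42.9% with 5-FU and 25% with TQ+5-FU. The 6 that rose with TQ (ACAT2, HMGCS1, IDI1, SC5D, ELOVL6 and ACSL4) all lay over 1 log2 unit lower in 5-FU replicate 3 than on its replicates. Of those that fell with TQ, LSS, SCAP, SREBF1, SREBF2, ACACA and FASN lay 0.84 to 1.01 higher there. NSDHL lay 0.20 higher, and SCD (-0.50) and LPIN1 (-2.11) lower. Whether the TQ differences run with that displacement was not tested.

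Genes were also counted where all 3 treated arrays lay on the same side of all controls. With TQ, 6 of the 28 were higher and 13 lower without overlap, against 17.5% and 28.9% of all genes. With 5-FU, 2 were higher and 5 lower, against 14.2% and 11.4%. With TQ+5-FU, 2 were higher and 5 lower, against 13.6% and 11.1%. The median difference from control over the 28 genes was -0.15 with TQ, -0.21 with 5-FU and -0.12 with TQ+5-FU, against -0.09, 0.09 and 0.01 over all genes.

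**Figure D2:**
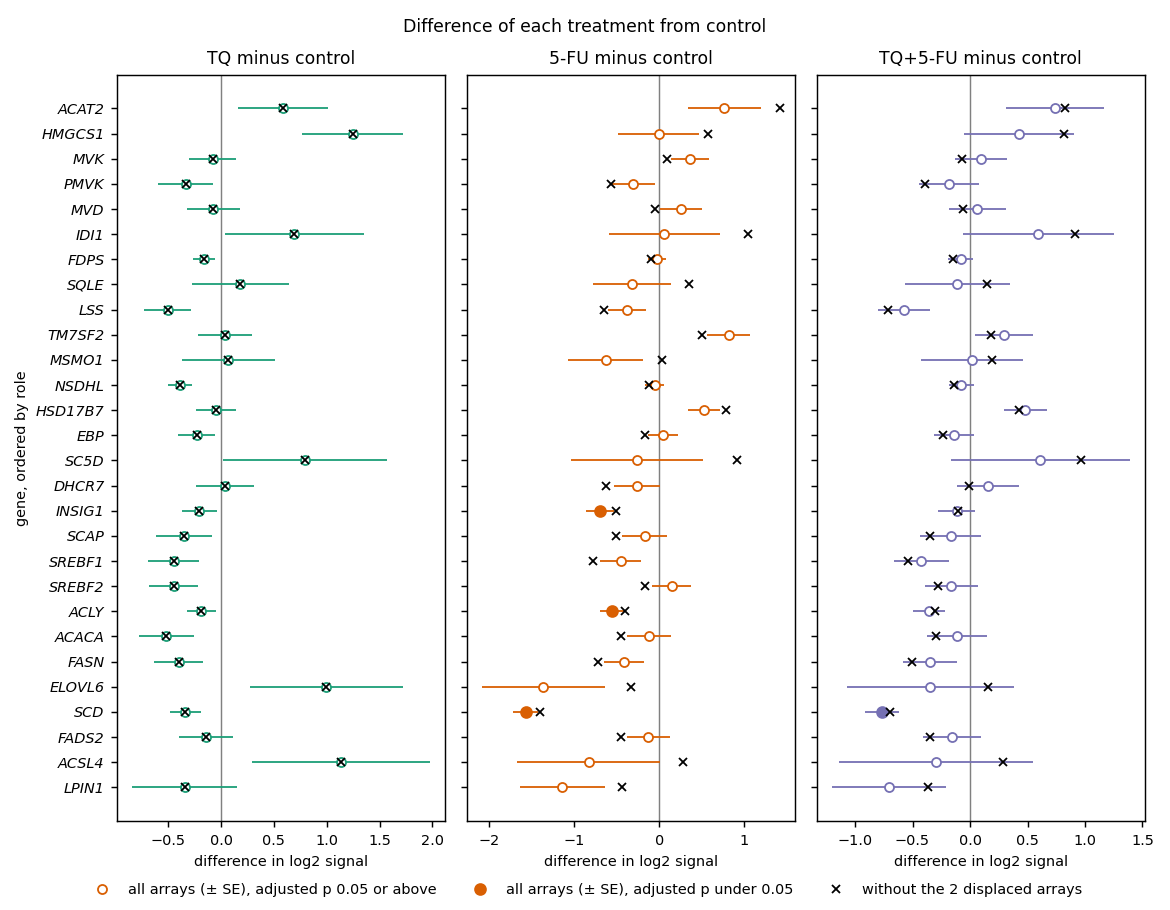
Difference in log2 signal from control (horizontal axis) for the 28 genes (vertical axis, ordered by role) with TQ, 5-FU and TQ+5-FU; circles are the fit of all arrays with its SE, filled where adjusted p is under 0.05, and crosses are the values without the 2 displaced arrays. SCD, INSIG1 and ACLY are filled with 5-FU and SCD with TQ+5-FU, and the crosses of ACAT2 and IDI1 lie above 1 with 5-FU.

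Among the 7 measured genes of the mevalonate steps, none passed the test against control with all arrays. HMGCS1, which condenses acetoacetyl-CoA with acetyl-CoA, measured 7.05, 7.23 and 7.34 in TQ cells, 6.63, 6.44 and 4.80 in 5-FU cells, 7.06, 5.59 and 6.50 in TQ+5-FU cells and 6.21, 6.14 and 5.54 in control cells. All TQ arrays lay above all controls, and the lowest signal of each 5-FU group came from its displaced array. The TQ difference was 1.24 ± 0.48 (SE, n = 3 each, adjusted p = 0.41). HMGCS1 rose without the displaced arrays, by 1.24 with TQ (adjusted p = 0.0010) and by 0.82 with TQ+5-FU (adjusted p = 0.017), where it was 0.42 with all arrays.

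IDI1, the isomerase that interconverts the isoprenoid building blocks, measured 10.75, 10.91 and 10.93 in TQ cells, 11.34, 11.08 and 8.26 in 5-FU cells, 11.30, 10.13 and 10.86 in TQ+5-FU cells and 10.28, 10.14 and 10.09 in control cells. Its signal was above all controls on each treated array except the 2 displaced ones. ACAT2, the cytosolic acetoacetyl-CoA thiolase that supplies the pathway, was above all controls on each treated array except 5-FU replicate 3, at 9.49, 9.59 and 9.68 in TQ cells, 10.40, 10.45 and 8.47 in 5-FU cells, 9.93, 9.57 and 9.74 in TQ+5-FU cells and 9.24, 8.91 and 8.88 in control cells. IDI1 rose without the displaced arrays, by 0.69 with TQ, 1.04 with 5-FU and 0.91 with TQ+5-FU (adjusted p = 0.0021, 0.00024 and 0.0010), and ACAT2 rose by 0.58, 1.42 and 0.83 (adjusted p = 0.0025, 1.4e-05 and 0.00083). With all arrays the differences were 0.69, 0.06 and 0.59 for IDI1 and 0.58, 0.77 and 0.74 for ACAT2, and none passed.

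The other mevalonate genes moved less. The kinase MVK, the decarboxylase MVD and the farnesyl diphosphate synthase FDPS differed from control by -0.16 to 0.36 with all arrays, and none passed in either fit. PMVK, the phosphomevalonate kinase, fell with 5-FU without the displaced arrays (-0.57, adjusted p = 0.032) and differed by -0.31 with all of them.

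Among the 9 sterol genes, none passed against control with all arrays either. SQLE, the epoxidase that opens the sterol branch, measured 11.01, 11.29 and 11.26 in TQ cells, 11.40, 11.31 and 9.36 in 5-FU cells, 11.24, 10.38 and 11.08 in TQ+5-FU cells and 11.08, 11.04 and 10.91 in control cells. The groups overlapped in each comparison with control, and the 5-FU difference was -0.32 ± 0.46 (SE, adjusted p = 0.71). In the fit without the displaced arrays SQLE rose by 0.35 with 5-FU (adjusted p = 0.033), so the sign of its 5-FU difference turned with 5-FU replicate 3.

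LSS, which closes the sterol ring to lanosterol, was below control in every treated group, by -0.51 with TQ, -0.38 with 5-FU and -0.58 with TQ+5-FU (adjusted p between 0.32 and 0.50). LSS fell in all of them once the displaced arrays were left out, by 0.51, 0.65 and 0.72. SC5D, the desaturase of a late sterol step, ran the other way. It measured 8.98, 9.38 and 9.26 in TQ cells, 9.46, 9.19 and 5.81 in 5-FU cells, 9.56, 8.31 and 9.20 in TQ+5-FU cells and 8.56, 8.46 and 8.22 in control cells, and without the displaced arrays it rose by 0.80, 0.91 and 0.97. With all arrays its differences were 0.80, -0.26 and 0.61, none of which passed, so its 5-FU sign also turned with 5-FU replicate 3. In the fit without the displaced arrays, steps of the same branch thus moved in opposite directions.

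HSD17B7, the sterol ketone reductase, had its highest signals in the groups that received 5-FU. It measured 8.03, 8.14 and 8.05 in TQ cells, 8.96, 8.87 and 8.13 in 5-FU cells, 8.49, 8.72 and 8.61 in TQ+5-FU cells and 8.07, 8.16 and 8.13 in control cells. With all arrays it was 0.53 above control with 5-FU (adjusted p = 0.15) and 0.48 above with TQ+5-FU (adjusted p = 0.32). It rose by 0.79 with 5-FU and 0.42 with TQ+5-FU without the displaced arrays, and with TQ its difference was -0.05 in both fits.

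The remaining sterol genes gave smaller or array-dependent values. TM7SF2, a sterol reductase, was 0.82 above control with 5-FU (adjusted p = 0.093) with its 3 arrays all above the controls, and rose by 0.50 without the displaced arrays (adjusted p = 0.023). DHCR7, which makes cholesterol from its last precursor, measured 7.39, 7.53 and 8.54 in 5-FU cells and 8.09, 8.08 and 8.09 in control cells, and fell by 0.62 without the displaced arrays (adjusted p = 0.0017), where it was -0.27 with all arrays. NSDHL, of the demethylation steps, was 0.39 below control with TQ (-0.39, adjusted p = 0.22 with all arrays and 0.0046 without the displaced ones). MSMO1, the sterol methyl oxidase, and EBP, the sterol isomerase, passed in neither fit.

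Of the 4 genes of sterol sensing and SREBP control, INSIG1 alone passed with all arrays, and with 5-FU. It measured 8.90, 9.18 and 9.08 in TQ cells, 8.85, 8.64 and 8.19 in 5-FU cells, 9.26, 9.12 and 9.05 in TQ+5-FU cells and 9.28, 9.33 and 9.17 in control cells. Every 5-FU array lay below every control, whereas the other groups overlapped the controls. INSIG1 fell with 5-FU by 0.70 ± 0.16 (SE, n = 3 each), a 1.63-fold lower signal (adjusted p = 0.028), and by 0.51 without the displaced arrays (adjusted p = 0.0059). Its differences with TQ (-0.21) and TQ+5-FU (-0.12) did not pass. The 5-FU call was lost in 5 of 12 fits that each left out 1 array, namely any control, 5-FU replicate 2 or TQ replicate 3 (adjusted p between 0.053 and 0.12).

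SREBF1, the gene of the SREBP that favours fatty acid genes, measured 8.32, 8.14 and 8.09 in TQ cells, 7.73, 7.98 and 8.83 in 5-FU cells, 8.03, 8.45 and 8.16 in TQ+5-FU cells and 8.60, 8.60 and 8.71 in control cells. All TQ and all TQ+5-FU arrays lay below the controls, and in the 5-FU group replicate 3 lay above them. With all arrays the 3 differences were -0.45, -0.45 and -0.42 (SE 0.24, adjusted p between 0.36 and 0.66). With the displaced arrays left out, SREBF1 fell by 0.45 with TQ, 0.78 with 5-FU and 0.54 with TQ+5-FU (adjusted p = 0.0051, 0.00031 and 0.0047).

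SREBF2, the gene of the SREBP that favours sterol genes, measured 8.001, 7.97 and 7.85 in TQ cells, 8.21, 8.23 and 9.16 in 5-FU cells, 8.06, 8.47 and 8.15 in TQ+5-FU cells and 8.26, 8.38 and 8.52 in control cells. It was below all controls in TQ cells only, by 0.45 (-0.45, adjusted p = 0.61 with all arrays and 0.0029 without the displaced ones). SCAP differed from control by -0.36 with TQ, -0.17 with 5-FU and -0.17 with TQ+5-FU, and fell with TQ (-0.36) and 5-FU (-0.51) without the displaced arrays. Over the 4 genes the median was -0.40 with TQ, -0.31 with 5-FU and -0.17 with TQ+5-FU.

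**Figure D3:**
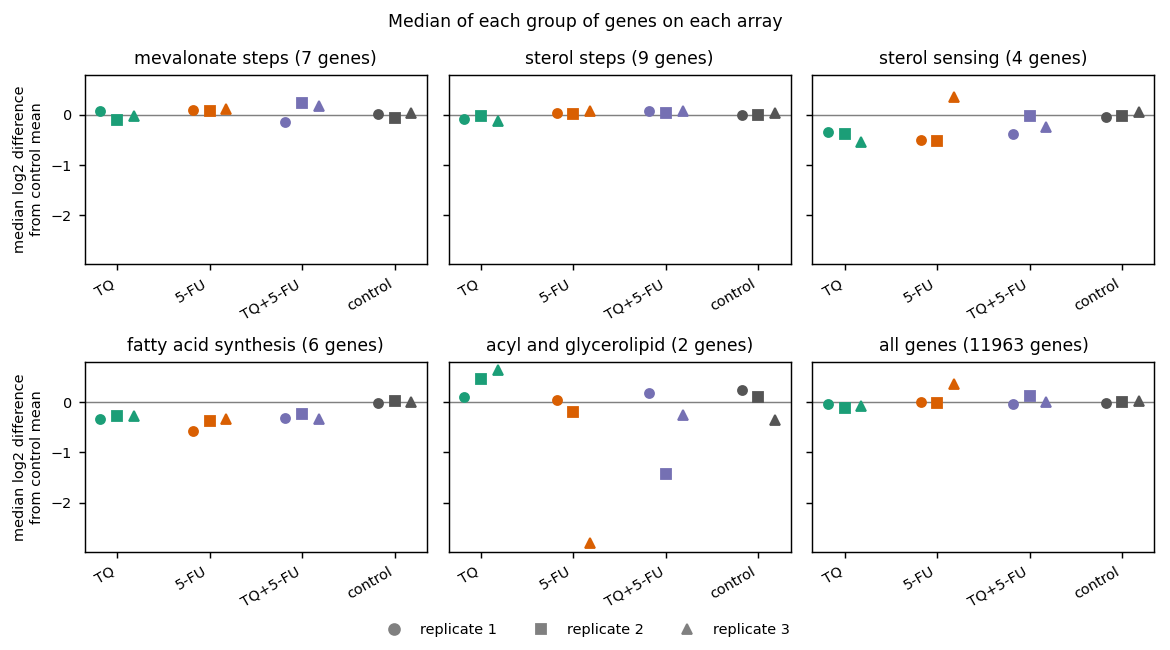
Median log2 difference from the control mean (vertical axis) on each array, by group of genes and by treatment (horizontal axis; symbols give the replicate), with all 11963 genes in the last panel. The fatty acid synthesis panel lies between -0.58 and -0.24 on all 9 treated arrays, and the sterol sensing panel has 5-FU replicate 3 at 0.35, apart from the other 5-FU arrays at -0.50 and -0.52.

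The 6 measured genes of fatty acid synthesis had a median below control in every treated group. The median difference was -0.26 with TQ, -0.49 with 5-FU and -0.35 with TQ+5-FU, and with 5-FU and TQ+5-FU all 6 lay below 0, except that ELOVL6 was 0.15 above control with TQ+5-FU without the displaced arrays. On single arrays the median ran from -0.58 to -0.24 in treated cells and from -0.02 to 0.01 in controls.

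SCD measured 10.91, 11.05 and 11.03 in TQ cells, 9.95, 9.90 and 9.42 in 5-FU cells, 10.68, 10.42 and 10.60 in TQ+5-FU cells and 11.33, 11.34 and 11.33 in control cells. On this brightest SCD probe set the 4 groups did not overlap, with 5-FU lowest, then TQ+5-FU, then TQ, then control. The group means were 10.99 ± 0.08, 9.76 ± 0.29, 10.57 ± 0.13 and 11.33 ± 0.01 in that same order of TQ, 5-FU, TQ+5-FU and control (SD, n = 3 each).

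With 5-FU SCD fell by 1.57 ± 0.14 (SE), a 2.98-fold lower signal (adjusted p = 0.00019). With TQ+5-FU it fell by 0.77 ± 0.14 (SE), a 1.70-fold lower signal (adjusted p = 0.022). With TQ it was 0.34 lower on this brightest probe set (-0.34, adjusted p = 0.48), which did not pass with all arrays. The 5-FU fall passed in all 12 fits that left out 1 array, whereas the TQ+5-FU fall was lost without any control or any TQ+5-FU array (adjusted p between 0.053 and 0.10). Without both displaced arrays SCD fell by 1.41, 0.69 and 0.34 with 5-FU, TQ+5-FU and TQ (adjusted p = 1.1e-06, 0.00021 and 0.0046).

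ACLY, which supplies cytosolic acetyl-CoA to both branches, measured 11.47, 11.69 and 11.70 in TQ cells, 11.39, 11.43 and 10.94 in 5-FU cells, 11.54, 11.35 and 11.47 in TQ+5-FU cells and 11.78, 11.85 and 11.79 in control cells. All 9 treated arrays lay below all 3 controls. It fell with 5-FU by 0.56 ± 0.14 (SE), a 1.47-fold lower signal (adjusted p = 0.042), and differed by -0.35 with TQ+5-FU (adjusted p = 0.33) and -0.19 with TQ (adjusted p = 0.73). Leaving out 1 array at a time kept this call only without a 5-FU array and lost it without any of the other 9 (adjusted p between 0.050 and 0.16). The fit without both displaced arrays gave -0.40 (adjusted p = 0.0067).

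FASN, the synthase that makes palmitate, measured 9.23, 9.18 and 9.03 in TQ cells, 8.75, 8.91 and 9.73 in 5-FU cells, 9.05, 9.52 and 9.03 in TQ+5-FU cells and 9.49, 9.57 and 9.59 in control cells. The TQ arrays were all below the controls, and the displaced arrays were the highest of the 5-FU and TQ+5-FU groups. The differences with all arrays were -0.40, -0.42 and -0.35 (SE 0.23, adjusted p between 0.39 and 0.81). Without the displaced arrays FASN fell by 0.40, 0.72 and 0.51 with TQ, 5-FU and TQ+5-FU (adjusted p = 0.0040, 0.00019 and 0.0027).

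ACACA, whose product malonyl-CoA feeds FASN, was lower on all TQ arrays than in controls (-0.52, adjusted p = 0.0020 without the displaced arrays) and fell with 5-FU in that fit (-0.45, against -0.12 with all arrays). FADS2, a desaturase of polyunsaturated fatty acids, fell in that fit with 5-FU (-0.45, against -0.13 with all arrays) and TQ+5-FU (-0.34, against -0.16). ELOVL6, which elongates palmitate to stearate, measured 9.18, 9.37 and 9.38 in TQ cells, 7.97, 7.99 and 4.89 in 5-FU cells, 8.62, 6.98 and 8.32 in TQ+5-FU cells and 8.49, 8.41 and 8.05 in control cells. It was thus the fatty acid gene that lay above all controls with TQ (0.99) and below all of them with 5-FU (-1.36). Without the displaced arrays ELOVL6 rose with TQ (adjusted p = 0.00055) and did not pass with 5-FU (-0.33). On its other probe set, 210868_s_at, TQ again lay above all controls. There 5-FU (7.01, 6.84 and 4.17) overlapped the controls (7.18, 7.04 and 6.66).

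**Figure D4:**
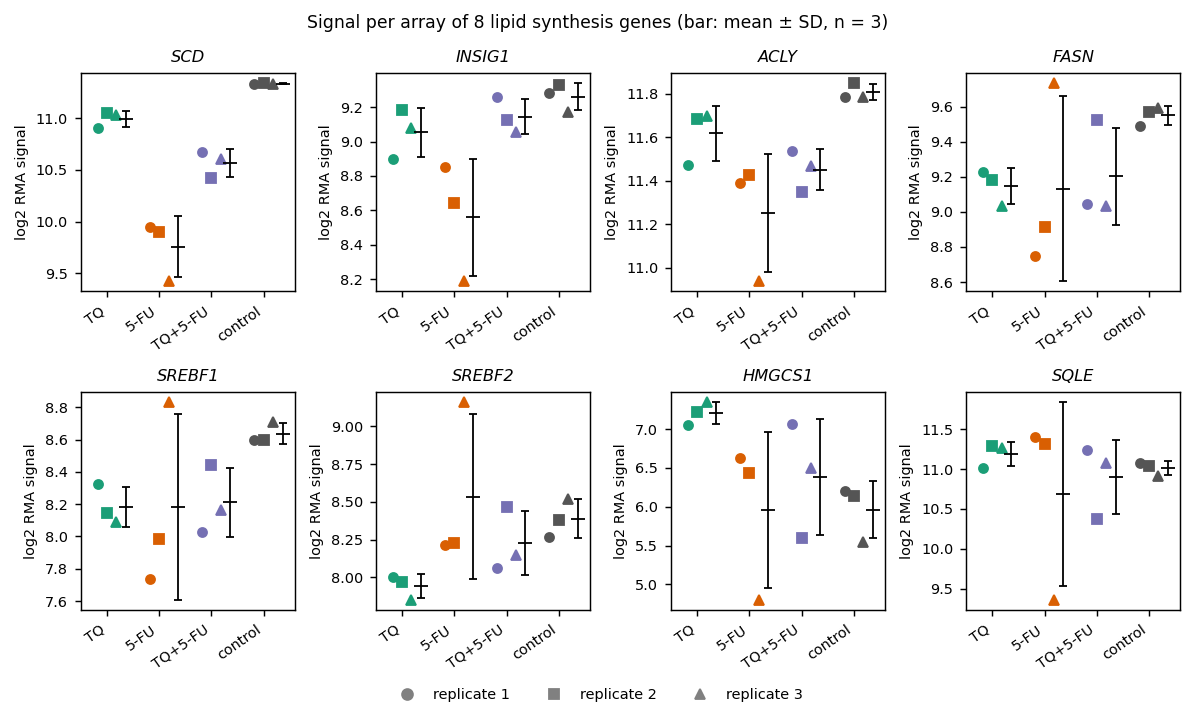
Log2 RMA signal (vertical axis) of 8 lipid synthesis genes on each array of TQ, 5-FU, TQ+5-FU and control cells (horizontal axis); symbols give the replicate and bars the mean with its SD of 3 arrays. On its brightest probe set SCD separates all 4 groups, from 9.42 to 9.95 with 5-FU up to 11.33 and 11.34 in controls. On the probe sets shown, 5-FU replicate 3 is the lowest 5-FU array for SCD, INSIG1, ACLY, HMGCS1 and SQLE and the highest for FASN, SREBF1 and SREBF2.

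Of the genes of acyl activation and glycerolipid assembly, ACSL4, which activates arachidonate, had the widest spread. It measured 7.57, 8.25 and 8.62 in TQ cells, 7.47, 7.11 and 3.94 in 5-FU cells, 7.67, 5.55 and 6.92 in TQ+5-FU cells and 7.33, 7.22 and 6.47 in control cells. It rose with TQ in the fit without the displaced arrays (1.14, adjusted p = 0.015). LPIN1, a phosphatidate phosphatase, was lower than all controls in each treated group (-0.35 with TQ, -1.14 with 5-FU and -0.71 with TQ+5-FU). It passed with none of them with all arrays, and without the displaced arrays it fell by 0.35, 0.44 and 0.37.

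What TQ added to 5-FU was examined next by comparing TQ+5-FU with 5-FU. SCD was higher in TQ+5-FU cells than in 5-FU cells by 0.81 ± 0.14 (SE), 1.75-fold (adjusted p = 0.034), and its arrays did not overlap. No other gene of the 28 was called, against 0.802% of all genes, and leaving out 1 array at a time kept this call only without 5-FU replicate 3 (adjusted p between 0.051 and 0.16 in the other 11 fits). INSIG1 was higher in TQ+5-FU cells by 0.58, also without overlap (adjusted p = 0.18). Without the displaced arrays SCD (0.71) and DHCR7 (0.61) were higher in TQ+5-FU cells, against 3.67% of all genes, and ACAT2 (-0.59) and HSD17B7 (-0.37) were lower, against 3.24%. With all arrays DHCR7 was at 0.42, ACAT2 at -0.03 and HSD17B7 at -0.05 in this comparison.

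TQ+5-FU against TQ gave 0 of 28 genes with all arrays, against 1.15% of all genes, and 3 with an unadjusted p under 0.05 (NSDHL, HSD17B7 and SCD), against 12.7%. SCD was 0.43 lower in TQ+5-FU cells than in TQ cells (-0.43, adjusted p = 0.24). TQ against 5-FU gave SCD alone, 1.23 ± 0.14 (SE) higher in TQ cells, 2.35-fold (adjusted p = 0.00080), against 11.1% of all genes. That size belongs to the brightest SCD probe set, and the mean of the SCD probe sets gave 0.55 (limma, adjusted p = 0.041).

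The interaction, TQ+5-FU minus TQ minus 5-FU plus control, asks whether the response to both drugs departs from the sum of the responses to each. None of the 28 genes passed with all arrays, against 0.167% of all genes. An unadjusted p under 0.05 was found for SCD (1.15 ± 0.20, adjusted p = 0.081), INSIG1 (0.79 ± 0.23, adjusted p = 0.38) and NSDHL (0.37, adjusted p = 0.78), 3 of the 28, against 6.3% of all genes. All 6 fatty acid genes and all 4 sensing genes had a value above 0, with medians of 0.43 and 0.42, against 0.0044 over all genes. These values share the control and drug arrays of the comparisons already given.

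Without the displaced arrays the interaction passed for 8 of the 28. It was above 0 for SCD (1.05), SREBF1 (0.69), ACACA (0.68), INSIG1 (0.62), FASN (0.61) and DHCR7 (0.58), against 5.88% of all genes, so that for these 6 genes TQ+5-FU cells lay above the sum of the responses to TQ and to 5-FU. It was below 0 for ACAT2 (-1.17) and IDI1 (-0.83), against 5.21%, the genes with the largest rises with 5-FU alone in that fit. With all arrays the values of ACAT2 and IDI1 were -0.61 and -0.16. ELOVL6 lay at -0.51 in the fit without the displaced arrays, against 0.02 with all of them, so that 5 of the 6 fatty acid genes stayed above 0. In the same fit the second probe set of ACACA, 212186_at, gave an interaction of 0.05 (adjusted p = 0.89). That of DHCR7, 201790_s_at, gave 0.51 (adjusted p = 0.069), so neither second probe set passed.

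SCD had 4 probe sets annotated to it alone, and they differed in how they placed the displaced 5-FU array. The brightest, 200832_s_at, gave the values above. On 200831_s_at the signals were 9.61, 9.64 and 9.62 in TQ cells, 8.97, 9.08 and 9.62 in 5-FU cells, 9.41, 9.50 and 9.50 in TQ+5-FU cells and 10.29, 10.27 and 10.31 in control cells. There 5-FU replicate 3 was the highest of the 5-FU arrays, and on 211162_x_at (8.36) and 211708_s_at (8.89) it was too. On each of these it lay above every TQ+5-FU array and within or above the TQ arrays. The separation of the 4 groups therefore held on 200832_s_at only.

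All 4 SCD probe sets were below every control on every treated array. In TQ cells 211162_x_at measured 7.90, 7.80 and 7.90, against 8.53, 8.48 and 8.69 in controls. There 211708_s_at measured 8.49, 8.48 and 8.49, against 9.04, 9.12 and 9.16 in controls. On both, and on 200831_s_at, TQ cells thus lay further below control than the 0.34 of the brightest probe set. With 5-FU the other 3 gave -1.07, -0.98 and -0.92 (adjusted p = 0.0022, 0.061 and 0.062), and with TQ+5-FU they gave -0.82, -0.86 and -0.85 (adjusted p = 0.020, 0.17 and 0.15). The rise in TQ+5-FU cells over 5-FU cells was not called by them, at 0.25, 0.12 and 0.07 (adjusted p = 0.66, 0.85 and 0.90). In the fit without the displaced arrays these became 0.43, 0.40 and 0.31 (adjusted p = 0.014, 0.071 and 0.17), and the interaction passed on all 4 probe sets (0.93 to 1.10).

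**Figure D5:**
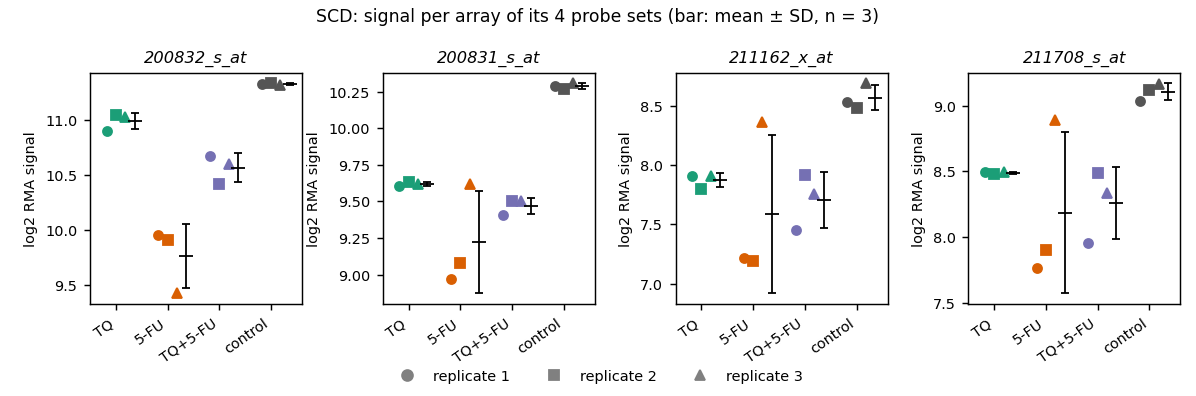
Log2 RMA signal (vertical axis, a scale of its own in each panel) of the 4 SCD probe sets on each array of TQ, 5-FU, TQ+5-FU and control cells (horizontal axis); symbols give the replicate and bars the mean with its SD of 3 arrays. Controls are highest on each probe set, and 5-FU replicate 3 is the lowest 5-FU array on 200832_s_at (9.42) and the highest on 200831_s_at (9.62), 211162_x_at (8.36) and 211708_s_at (8.89).

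Of the 28 genes, 17 had more than 1 probe set, SCD included, and 11 had 1 only. Those of ACLY agreed in passing with 5-FU (-0.47 and -0.58, adjusted p = 0.018 and 0.015), and 210337_s_at also passed with TQ+5-FU (-0.59, adjusted p = 0.029). Those of INSIG1 did not pass with 5-FU with all arrays (-0.19 and -0.42, adjusted p = 0.65 and 0.094), and both passed without the displaced arrays (-0.47 and -0.37, adjusted p = 0.0017 and 0.037). On INSIG1 201625_s_at, 5-FU replicate 3 (8.45) lay above all controls (7.98, 8.04 and 8.16), whereas on the main probe set it was the lowest array. A second LSS probe set, 211018_at, opposed the main one, with a rise of 0.73 with 5-FU (adjusted p = 0.039). Its signals were low, at 5.71, 5.74 and 6.32 in 5-FU cells and 5.27, 5.055 and 5.28 in control cells. On 211019_s_at, also of LSS, 5-FU (5.46, 5.56 and 6.38) overlapped the controls (5.64, 5.56 and 5.82). In both, 5-FU replicate 3 was the highest array. For ACACA, 212186_at was 0.31 above control with TQ, where the main probe set was 0.52 below it (-0.52), and both passed without the displaced arrays.

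Genes around the 2 branches were counted in 5 further lists. Their counts with all arrays were 0 or 1 gene a list in each comparison with control, where 2.97% of all genes fell and 4.32% rose with 5-FU and 1.78% rose with TQ+5-FU. Of 10 measured regulators of SREBP, 1 fell with 5-FU, PRKAG1, a regulatory subunit of the AMP-activated kinase that restrains lipid synthesis. It measured 9.23, 9.32 and 8.73 in 5-FU cells and 10.02, 9.96 and 9.95 in control cells, a difference of -0.88 (adjusted p = 0.0052). Of 10 genes of sterol transport, NPC2, which carries cholesterol out of the lysosome, rose with 5-FU (0.82, adjusted p = 0.00079) and TQ+5-FU (0.81, adjusted p = 0.0019). It measured 11.98, 12.02 and 11.94 in 5-FU cells, 11.90, 12.08 and 11.91 in TQ+5-FU cells and 11.09, 11.13 and 11.25 in control cells, so that neither treated group overlapped the controls.

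Of 18 genes of fatty acid oxidation, SLC25A20, the mitochondrial carnitine and acylcarnitine carrier, rose with 5-FU (0.91, adjusted p = 0.0021) and TQ+5-FU (0.83, adjusted p = 0.0073). It measured 9.15, 9.26 and 9.56 in 5-FU cells, 9.19, 9.35 and 9.19 in TQ+5-FU cells and 8.37, 8.37 and 8.50 in control cells. Without the displaced arrays 9 of the 18 rose and 0 fell with 5-FU, at a background of 14.9% and 13.4% of all genes, and with TQ+5-FU 7 rose and 1 fell, at a background of 12.7% and 10%. With TQ alone 6 rose and 3 fell in that fit, at a background of 15.1% and 17.3%, so rises were not particular to 5-FU. Of 11 genes of isoprenoid use RABGGTA rose with 5-FU (1.29, adjusted p = 0.020), and of 13 further acyl, glycerolipid and NADPH genes FADS3 did (1.01, adjusted p = 0.011), both with 5-FU replicate 3 as the highest array. With TQ alone 0 genes of the 5 lists passed with all arrays, and 4 had an unadjusted p under 0.05, against 9.67% of all genes.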

How the data were processed

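RNA of RKO cells was hybridized to oligonucleotide expression arrays of Affymetrix, with 3′ labelling. The deposited values are log2 signals that the authors background-corrected, normalized and summarized by RMA. The methods name GeneSpring GX 13.0 for this step and the submitters' notes name Affymetrix Expression Console; which of them made the values is not known. The values were used as deposited. Of 22277 probe sets, 62 Affymetrix control probe sets were left out. For the other 22215, group means were estimated jointly from the 12 arrays (limma 3.58.1 under R 4.3.3), and contrasts were tested two-sided and adjusted by Benjamini-Hochberg over all of them at a threshold of 0.05. The words rose and fell are kept for genes that passed. Gene names follow the platform annotation, in which 19064 probe sets name 1 gene, 1043 several and 2108 none, and each gene was read from its brightest probe set.

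Array by array values were given for every member past the threshold against control and for HMGCS1, SQLE, INSIG1, SREBF1, SREBF2, FASN and SCD; ACAT2, IDI1, SC5D, HSD17B7, DHCR7, ELOVL6, ACSL4 and the genes of the related lists were added after their values were seen. Members, related lists, naming rule and 10 alternatives, the fit without 5-FU replicate 3 and TQ+5-FU replicate 2 among them, were chosen with earlier results of these data known. The procedure was run on simulated data, with the mean error of added differences as the only criterion. Deviations of whole arrays were shuffled over the groups there, so the displaced arrays were not kept in their own groups. The simulation therefore cannot say how the calls behave with those arrays. The number of arrays limits the precision. Promoters came from RefSeq on GRCh38.p14. Plots used matplotlib 3.10.9 (Python 3.11.15).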

Additional observations from a re-analysis of the deposited data

How the results depend on the processing

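The 6 differences called with all arrays (SCD, INSIG1 and ACLY with 5-FU, and SCD in 3 other comparisons) kept their sign under each alternative run. With array weights the counts of the 28 genes called were 22 for TQ, 21 for 5-FU and 21 for TQ+5-FU against control, 13 for TQ+5-FU against 5-FU, 16 for TQ+5-FU against TQ, 18 for TQ against 5-FU, 25 for the interaction and 26 across the groups, against 52.8%, 54.7%, 55.8%, 62.4%, 60.2%, 59.2%, 55.7% and 87.2% of all genes; the estimate of these weights stopped short of convergence. Without both displaced arrays they were 15, 18, 12, 4, 3, 12, 8 and 20 in the same order, against 32.4%, 28.3%, 22.7%, 6.91%, 12.7%, 30.9%, 11.1% and 44.9% of all genes. The methods' t-test at unadjusted p gave 16 for TQ (37.2% of all genes) and 6 for TQ+5-FU against control (16.8%). It gave 2 for TQ+5-FU against 5-FU (5.02%), 3 for TQ+5-FU against TQ (16.3%) and 2 for TQ against 5-FU (15.2%). After Benjamini-Hochberg it gave 10 for TQ (17.5%). It then gave 0 for 5-FU against control (1.41%), TQ+5-FU against 5-FU (0%) and TQ against 5-FU (0.518%). The methods' ANOVA with Tukey's HSD gave 1 for 5-FU (6.82% of all genes). Quantile normalization gave 2 for TQ against 5-FU (9.82% of all genes), 1 for the interaction (0.167%) and 3 across the groups (7.48%). It moved the median of TQ against 5-FU to -0.11, over all genes -0.14. Centring arrays gave 2 for TQ against 5-FU (9.25% of all genes) and moved ACLY with 5-FU to an adjusted p of 0.058. The mean of a gene's probe sets gave 0 for TQ+5-FU against 5-FU (0.685% of all genes), 2 for TQ against 5-FU (11.7%) and 4 across the groups (7.87%). With array weights the median interaction was 0.23. The cause of these shifts was not tested.

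Leaving out 1 array at a time, the counts ran between 0 and 6 for TQ, 1 and 10 for 5-FU, 0 and 5 for TQ+5-FU against control, 0 and 3 for TQ+5-FU against 5-FU, 0 and 3 for TQ+5-FU against TQ, 1 and 5 for TQ against 5-FU, 0 and 3 for the interaction, and 1 and 11 across the groups. Each highest count came without 5-FU replicate 3, and for TQ against 5-FU also without 5-FU replicate 1 (20.2% of all genes). In the same order, the shares of all genes called without 5-FU replicate 3 were 8.69%, 15.8%, 11.1%, 3.29%, 13.2%, 15.2%, 3.3% and 23.1%. With all arrays these shares were 0.267%, 7.29%, 2.63%, 0.802%, 1.15%, 11.1%, 0.167% and 8.19%, so they were larger without that array in each comparison. The medians ran between -0.16 and -0.12 for TQ, -0.25 and -0.14 for 5-FU, -0.13 and -0.05 for TQ+5-FU against control, -0.084 and 0.11 for TQ+5-FU against 5-FU, 0.0043 and 0.10 for TQ+5-FU against TQ, -0.17 and 0.063 for TQ against 5-FU, and 0.10 and 0.25 for the interaction.

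The labels number the arrays of each group, but same-numbered arrays deviated together with correlations between -0.84 and 0.86, and 4 of 12 arrays correlated best with their own number, so the numbers were not taken as pairs. With the replicate block the counts were 2 for 5-FU (5.2% of all genes), 0 for TQ+5-FU against control (1.52%) and 0 for TQ+5-FU against 5-FU (0.343%). ACLY with 5-FU then had an adjusted p of 0.088.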
